A study of Rattus norvegicus with 14 samples.

Results

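The genes described here are 9 enzymes that turn reactive carbonyls, quinones and epoxides into less reactive products: the aldo-keto reductases Akr1b8, Akr7a3, Akr1b1 and Akr1a1, the aldehyde dehydrogenases Aldh3a1 and Aldh1a1, the carbonyl reductase Cbr1, the quinone reductase Nqo1 and the epoxide hydrolase Ephx1. They are 9 of the 14497 rat genes that the array measured with a probe set naming only that gene, and each is represented by its brightest such probe set. The members were selected on their levels in persistent liver foci, so their differences between foci and other liver are given below as a description, with no test. All 9 were measured, and no filter on dim genes was applied.

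Aldehydes and quinones arise from lipid peroxidation, from ordinary metabolism and from carcinogens, and they bind protein and DNA. Aldo-keto reductases and carbonyl reductases reduce the carbonyl group to an alcohol with NADPH, aldehyde dehydrogenases oxidise aldehydes to acids with NAD or NADP, and Nqo1 reduces quinones straight to hydroquinones without releasing the semiquinone radical. Several of these genes are textbook targets of NRF2, the transcription factor that binds antioxidant response elements, or of the aryl hydrocarbon receptor, which binds xenobiotic response elements, and several are long known as markers of carcinogen-induced lesions in rat liver.

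Expression was measured in male F344 rats, an inbred strain, with 1-colour Affymetrix Rat Gene ST 1.0 arrays on RNA from regions cut by laser capture microdissection out of formalin-fixed, paraffin-embedded liver. There were 4 groups of 3 animals. Normal liver came from adult rats, for which the labels name no treatment. AAF/PH liver came from rats given a 2.5 mg pellet of 2-acetylaminofluorene (AAF, a liver carcinogen that blocks hepatocyte division) from day 1, releasing for 14 days, and a partial hepatectomy (PH) on day 7, and it was taken on day 14. The labels name oval cells, the small ductular cells that multiply in this setting, as the feature of these regions. Foci came from rats given the Solt-Farber protocol: diethylnitrosamine, a liver carcinogen, at 200 mg/kg on day 1, the same AAF pellet on day 14, partial hepatectomy on day 21, and euthanasia on day 70. Both foci groups shared these agents and differed in the pellet placed on day 21, which released placebo or rapamycin (an inhibitor of mTOR, at 2.5 mg/kg per day in the labels) for 21 days. Foci therefore differed from AAF/PH liver in diethylnitrosamine, in the day of sampling and in the pellet as well as in the captured tissue, and these cannot be told apart. The labels give no age for any group.

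The captured foci were positive for the placental glutathione S-transferase GSTP, per the labels, and its gene Gstp1 had a geometric mean intensity of 109.6 in normal liver, 181.6 in AAF/PH liver, 4023 in placebo foci and 3117 in rapamycin foci, its lowest focus being rapamycin animal 3 at 1814. Rapamycin animal 3 stood apart from its group: it was run on 3 arrays, 2 on the same RNA (3a and 3b) and 1 on a new capture (3c), which were averaged here on the log2 scale. Over genes, its arrays had interquartile ranges of 1.57 to 1.71 in log2 intensity, against 1.98 to 2.8 on the other 11, while array medians ran from 19.8 to 25.4. These ranges also differed between groups, at 2.36 to 2.8 in normal liver and 1.98 to 2.26 in AAF/PH liver. The part of this narrower range in the AAF/PH differences was not tested. Differences of the members between rapamycin and placebo foci, and their calls in AAF/PH liver, are summarised with and without rapamycin animal 3. Likeness of profiles and the counts of regulators, targets and cell type markers include it. The number of animals limits the precision of every value, and since captured regions hold several cell types, fewer cells of a type and less RNA per cell cannot be told apart.

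The promoters of the members were examined for the elements bound by NRF2 and the aryl hydrocarbon receptor. RefSeq's promoter table (build GRCr8, 250 bases before to 50 bases after each start) held 8 entries for 7 of the 9 members, with 2 starts for Ephx1. Akr1b1 and Aldh3a1 had no entry there. The letters searched on both strands were TGACNNNGC, the core of the antioxidant response element, and GCGTG, the core of the xenobiotic response element. Of 33469 promoters of this length, 12.1% held the first and 29.7% the second, so 1 of 8 entries and 3 of 8 entries for the members are near these shares. The bases from -100 to -1 before the start are shown for the members whose levels differed most in foci, for those with a match, and for Gstp1 as the marker of the lesions, with matches in capitals.
Akr1b8, chr4:63964321-63964420, plus strand: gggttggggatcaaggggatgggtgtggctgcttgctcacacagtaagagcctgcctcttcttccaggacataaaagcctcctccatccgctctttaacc
Akr7a3, chr5:156876621-156876720, plus strand: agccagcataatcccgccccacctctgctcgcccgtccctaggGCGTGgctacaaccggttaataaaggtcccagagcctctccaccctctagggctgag
Nqo1, chr19:52220268-52220367, minus strand: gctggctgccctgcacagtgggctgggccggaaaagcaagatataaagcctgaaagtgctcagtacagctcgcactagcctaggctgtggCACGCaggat
Ephx1, chr13:95263118-95263217, minus strand: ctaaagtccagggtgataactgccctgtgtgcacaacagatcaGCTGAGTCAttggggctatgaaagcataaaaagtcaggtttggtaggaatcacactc
Cbr1, chr11:46346305-46346404, plus strand: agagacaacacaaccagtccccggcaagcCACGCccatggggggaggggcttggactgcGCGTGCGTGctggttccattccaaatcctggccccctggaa
Gstp1, chr1:210769706-210769805, minus strand: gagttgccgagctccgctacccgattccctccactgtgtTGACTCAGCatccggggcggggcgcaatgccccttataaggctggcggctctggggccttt

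The antioxidant response element core matched at -61 to -53 in Gstp1 and, on the other strand, at -57 to -49 before 1 of the 2 Ephx1 starts, and read in the direction of the motif both matches were TGACTCAGC. The xenobiotic response element core matched 3 times in Cbr1, at -71, -41 and -37, of which the last 2 overlap by 1 base, and once each in Akr7a3 at -57 and Nqo1 at -10. Gstp1 held 2 matches to it, at -238 and at 30 after the start, both outside the bases shown. Matches to the 2 motifs did not overlap each other. A match is a match of letters in this window only.

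In placebo foci every one of the 9 enzymes was higher in all 3 animals than in any normal liver, a separation that 14.8% of all genes showed and that the choice of members fixes. The size of the difference ran from 39.0-fold for Akr1b8 to 1.35-fold for Akr1a1, with a median log2 difference of 2.06. Akr1b8, Akr7a3 and Nqo1 formed a high tier, Aldh3a1, Aldh1a1 and Ephx1 a middle tier, and Akr1b1, Cbr1 and Akr1a1 a low tier. These directions were the same after median centring and after quantile normalization. All intensities below are linear array intensities in the order animal 1, 2 and 3.

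Akr1b8, an aldose reductase-like enzyme that reduces aliphatic and unsaturated aldehydes, measured 23.1, 23.8 and 25.98 in normal liver, 46.2, 52.0 and 83.5 in AAF/PH liver, 830.5, 763 and 1336 in placebo foci, and 785, 914 and 179.5 in rapamycin foci. Every focus lay above every AAF/PH liver, and rapamycin animal 3 lay far below the other 5 foci. The log2 difference from normal liver was 5.29 in placebo foci and 4.38 in rapamycin foci, or 5.13 without rapamycin animal 3.

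Akr7a3, the aldehyde reductase of rat liver known for detoxifying the dialdehyde of aflatoxin, measured 95.1, 86.9 and 95.3 in normal liver, 194, 148.5 and 200.3 in AAF/PH liver, 1992, 1906 and 2108 in placebo foci, and 1911, 2109 and 658 in rapamycin foci. The 3 placebo foci spanned a narrow range, with an SD of 0.07 on the log2 scale, the smallest of the 9 members in that group. Its placebo foci were 21.7-fold above normal liver and 11.2-fold above AAF/PH liver.

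Nqo1, the quinone reductase, measured 29.6, 25.1 and 31.2 in normal liver, 22.9, 31.2 and 24.1 in AAF/PH liver, 496, 447 and 669 in placebo foci, and 306, 447 and 76.9 in rapamycin foci. AAF/PH liver and normal liver overlapped, and all 6 foci lay above both. Placebo foci were 18.5-fold above normal liver and 20.5-fold above AAF/PH liver.

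Aldh3a1, which oxidises aromatic and medium-chain aldehydes and is known as a tumour-associated form in rat liver, measured 11.5, 11.3 and 10.5 in normal liver, 13.8, 12.9 and 11.1 in AAF/PH liver, 84.8, 71.9 and 73.6 in placebo foci, and 42.7, 58.4 and 38.7 in rapamycin foci. The normal and AAF/PH values lie in the dim range of the array, below the lowest array median of 19.8, so the 6.89-fold difference of placebo foci from normal liver is set against a signal near the floor. It was the member whose rapamycin foci all lay below its placebo foci.

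Aldh1a1, a retinal dehydrogenase that also oxidises lipid aldehydes, measured 279, 131 and 237 in normal liver, 819.8, 642 and 928 in AAF/PH liver, 814, 663 and 1167 in placebo foci, and 879, 1066 and 229 in rapamycin foci. AAF/PH liver and placebo foci overlapped, at geometric means of 788 and 857, and rapamycin animal 3 fell inside the range of normal liver. Its probe set lists 2 RefSeq transcripts of which 1 was found in the GRCr8 gene table, so a near copy may share the signal.

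Ephx1, the microsomal epoxide hydrolase and a known preneoplastic antigen of rat liver, measured 706, 675.5 and 688 in normal liver, 1551, 1485 and 1619 in AAF/PH liver, 2219, 1943 and 2539 in placebo foci, and 2305, 2573 and 808 in rapamycin foci. The 3 normal livers spread little (SD 0.03 on the log2 scale), AAF/PH liver lay between normal liver and the placebo foci, and rapamycin animal 3 lay closer to normal liver than to the other foci. Placebo foci were 3.22-fold above normal liver.

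Akr1b1, aldose reductase of the polyol pathway, measured 49.5, 40.7 and 46.7 in normal liver, 56.5, 68.4 and 60.1 in AAF/PH liver, 102, 84.9 and 137 in placebo foci, and 104.6, 94.7 and 53.8 in rapamycin foci. A dimmer probe set of the gene, at means from 7.33 to 10.4, differed by 0.40 on the log2 scale between placebo foci and normal liver where the brighter one differed by 1.22. In the GRCr8 gene order Akr1b1, Akr1b8, Akr1b10 and Akr1b7 are neighbours on chromosome 4, and probes of these paralogs may share signal.

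Akr1a1, the aldehyde reductase that also makes the gulonate used for ascorbate, measured 699.8, 644 and 761 in normal liver, 793, 564 and 798 in AAF/PH liver, 871, 852 and 1130 in placebo foci, and 889, 951.5 and 378 in rapamycin foci. Rapamycin animal 3 was the lowest of the 12 animals.

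Cbr1, a carbonyl reductase of quinones and prostaglandins, measured 36.0, 44.9 and 41.6 in normal liver, 76.4, 62.9 and 109 in AAF/PH liver, 59.8, 65.5 and 53.5 in placebo foci, and 53.5, 46.0 and 66.0 in rapamycin foci. It was the member with its highest group mean in AAF/PH liver (80.7) and not in foci (59.4 and 54.6). A dimmer probe set of the gene showed the same order of groups, with means of 15.2 in normal liver (below the lowest array median), 50.6 in AAF/PH liver, 30.8 in placebo foci and 22.0 in rapamycin foci. Cbr1 lies beside Cbr1l1, Cbr1l2, Cbr1l3 and Cbr3 on chromosome 11, and these copies may share probes.

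**Figure D1:**
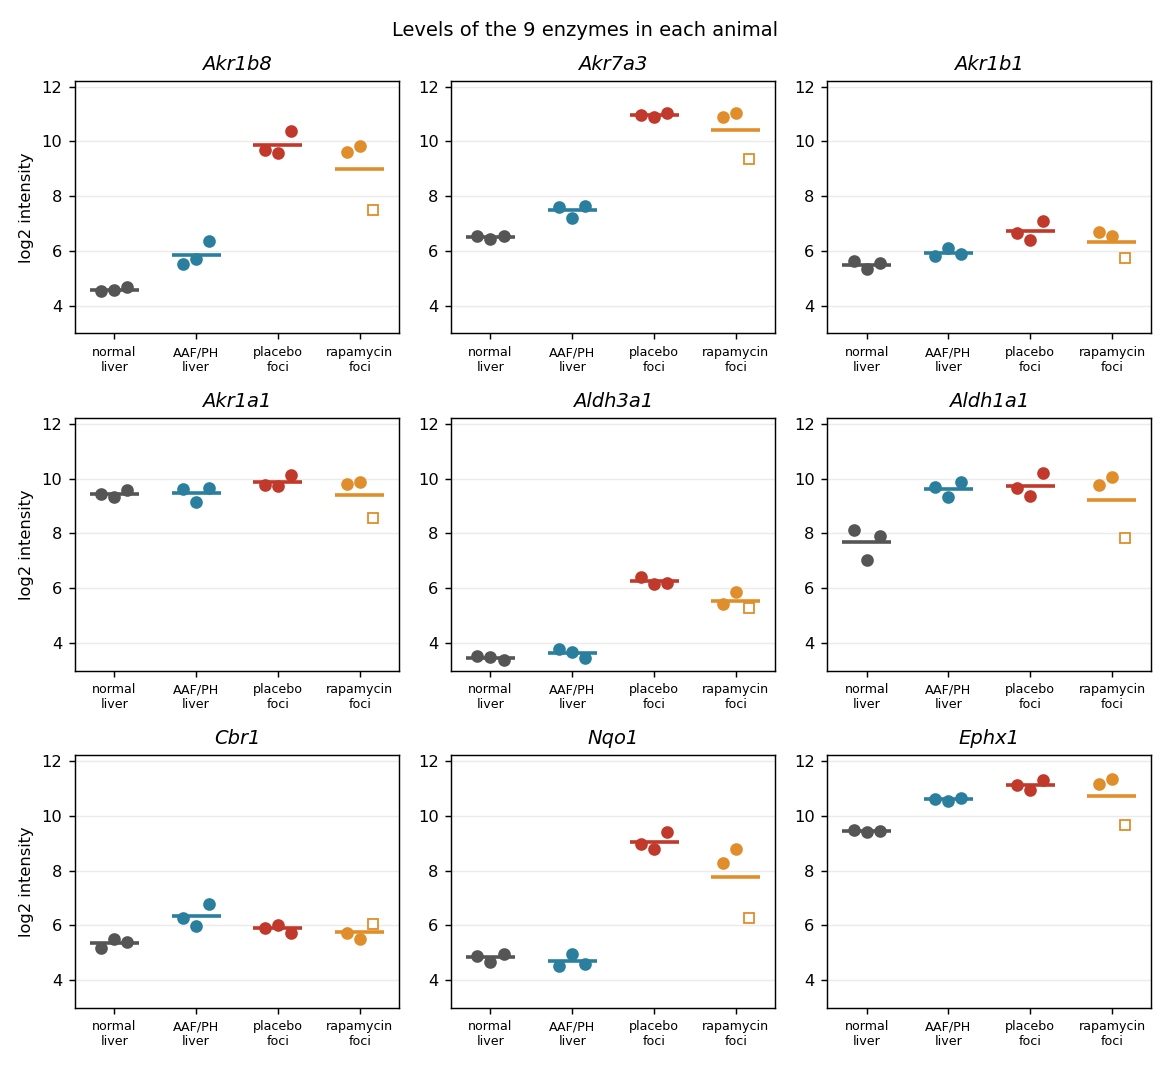
Log2 intensity (y axis) of each of the 9 enzymes in every animal of the 4 groups (x axis); circles are animals, the open square is rapamycin animal 3 (mean of its 3 arrays), and horizontal lines are group means of 3 animals. Akr1b8, Akr7a3 and Nqo1 show the widest gap between foci and the other livers, Aldh1a1 and Ephx1 are higher in AAF/PH liver than in normal liver, and Cbr1 is highest in AAF/PH liver.

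The comparison of AAF/PH liver with normal liver asks which of the enzymes differ in liver exposed to AAF and hepatectomy in which no foci were captured. Aldh1a1, Cbr1 and Ephx1 were higher, while Nqo1, Aldh3a1 and Akr1a1 overlapped with normal liver. The members were chosen by their values in foci against the same normal livers, and the choice was made with the AAF/PH values known, so the adjusted p-values below place the members in the fit over all genes and are not independent evidence. limma's moderated test was fitted over all 14497 genes and 4 groups, with Benjamini-Hochberg adjustment, and the call threshold was an adjusted p of 0.05.

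Of the 9 members 3 rose and 0 fell, where 7.54% of all genes were called higher and 12.5% lower. Aldh1a1 rose 3.83-fold, a log2 difference of 1.94 with a standard error of 0.46 (adjusted p = 0.00806). Ephx1 rose 2.25-fold, or 1.17 ± 0.32 on the log2 scale (SE, adjusted p = 0.0189). Cbr1 rose 1.98-fold, or 0.99 ± 0.21 (SE, adjusted p = 0.00483). All 3 AAF/PH livers lay above all 3 normal livers in each of these genes.

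Akr1b8 and Akr7a3 missed the threshold, at log2 differences of 1.27 ± 0.46 (SE, adjusted p = 0.0661) and 0.96 ± 0.33 (SE, adjusted p = 0.0523), although all 3 AAF/PH livers lay above all 3 normal livers in both. Akr1b1 was likewise separated, at 0.43 ± 0.24 (SE, adjusted p = 0.218). With these, 6 of the 9 members had AAF/PH livers that were all higher than the normal livers, against 27.4% of all genes. Nqo1 differed by -0.14 ± 0.45 (SE, adjusted p = 0.827), Aldh3a1 by 0.18 ± 0.18 (SE, adjusted p = 0.488) and Akr1a1 by 0.02 ± 0.29 (SE, adjusted p = 0.965). The sign for Aldh3a1 turned under quantile normalization (-0.06), and that for Akr1a1 turned under median centring (-0.10). Under quantile normalization Akr1a1 instead differed by 0.84 and was called (adjusted p = 0.00037), its 1 call over 22 alternatives. The median of all genes was 0.12 higher in AAF/PH liver on the log2 scale, and 0.00 after median centring. This shift does not measure the narrower intensity range of the AAF/PH arrays, whose part was not tested.

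The calls depended on which animals shared the estimate of spread. Rapamycin foci enter this comparison only through that estimate, and without rapamycin animal 3 the call count was 5, with Akr1b8 at an adjusted p of 0.000227 (range over all alternatives 0.000152 to 0.257) and Akr7a3 at 0.000108 (range 1.97e-05 to 0.135). It was also 5 without rapamycin animal 2. The Ephx1 call was lost without normal animal 1 or 3 or without any 1 of the 3 AAF/PH livers, with adjusted p between 0.0541 and 0.0619, while Aldh1a1 and Cbr1 were called under all 22 alternatives. Over all genes, 1093 were called higher and 1807 lower. That split was 691 and 2374 after median centring, 1414 and 1547 after quantile normalization, and 4226 and 3770 with array quality weights.

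Set beside the foci, the 9 enzymes fell into different patterns. Placebo foci differed from AAF/PH liver by 4.36 on the log2 scale for Nqo1, 4.01 for Akr1b8, 3.48 for Akr7a3 and 2.61 for Aldh3a1. The same difference was 0.79 for Akr1b1, 0.52 for Ephx1, 0.41 for Akr1a1, 0.12 for Aldh1a1 and -0.44 for Cbr1. These differences rest on the foci that chose the members, so they carry no test.

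**Figure D2:**
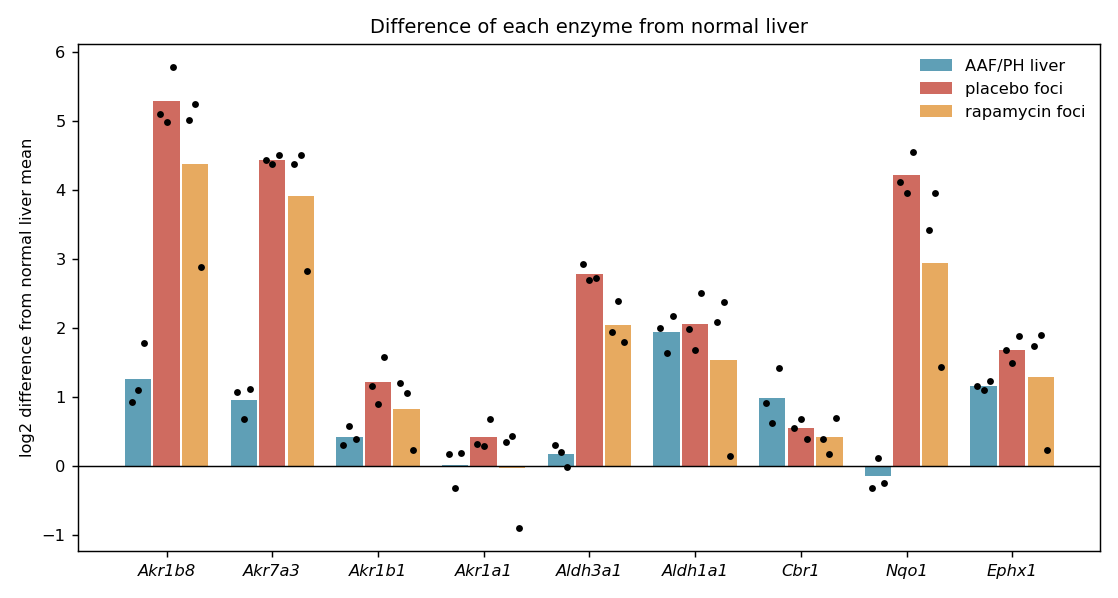
Log2 difference of each enzyme from the mean of the 3 normal livers (y axis) in AAF/PH liver, placebo foci and rapamycin foci; bars are group means and black points are the 3 animals of each group. Aldh1a1 has like bars in AAF/PH liver (1.94) and placebo foci (2.06), whereas Nqo1 has -0.14 and 4.21.

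Foci of rapamycin-treated rats were set beside placebo foci to describe the enzymes under the drug. Both groups are foci whose levels chose the members, so the adjusted p-values place them in the fit over all genes and are not independent evidence for or against a change. All 9 members had a lower mean in rapamycin foci, with a median log2 difference of -0.52, and 0 of 9 were called. Without rapamycin animal 3 the differences ran from -0.62 to 0.18, with 6 of 9 below 0. The median log2 difference of all genes was 0.01, and the share of all genes with a lower mean was not counted. Of the 1123 genes with a mean above an intensity of 200 in rapamycin animals 1 and 2, 97.7% were lower in animal 3 than in both. The counts of lower members are therefore not shown to be particular to them. Over all genes 0 of 14497 (0%) were called by limma, with 483 at an unadjusted p under 0.05, 1 called with array quality weights, and 2 called without placebo animal 3 and 3 without rapamycin animal 3.

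Nqo1 had the widest difference, -1.27 ± 0.45 on the log2 scale (SE, adjusted p = 0.985), and -0.52 without animal 3 (adjusted p = 0.762; range over alternatives 0.335 to 1). Akr1b8 differed by -0.91 ± 0.46 (SE, adjusted p = 0.985), and by -0.16 without animal 3. Aldh3a1 differed by -0.74 ± 0.18 (SE, adjusted p = 0.985), and by -0.62 without animal 3 (adjusted p = 0.354; range 0.299 to 1). Aldh3a1 was the 1 member whose 3 rapamycin foci all lay below the 3 placebo foci, a separation seen in 2.41% of all genes. Akr7a3 differed by -0.53, Aldh1a1 by -0.52, Akr1a1 by -0.46, Ephx1 by -0.40, Akr1b1 by -0.39 and Cbr1 by -0.12. Without animal 3 the differences of Akr7a3, Aldh1a1 and Ephx1 changed sign, to 0.01, 0.18 and 0.13, and under quantile normalization that of Cbr1 did, to 0.04.

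Against normal liver, 7 of the 9 members were higher in all 3 rapamycin foci with no overlap, where 15.1% of all genes were. The members were chosen on their levels in foci, so this count largely follows from that choice and carries no test. The exceptions were Akr1a1 and Aldh1a1. Both had rapamycin animals 1 and 2 above every normal liver and animal 3 inside or below the normal range. Rapamycin foci without animal 3 had log2 differences from normal liver of 5.13 for Akr1b8, 4.44 for Akr7a3, 3.70 for Nqo1, 2.24 for Aldh1a1, 2.17 for Aldh3a1, 1.82 for Ephx1, 1.13 for Akr1b1, 0.39 for Akr1a1 and 0.29 for Cbr1.

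Rapamycin animal 3 was lower than both other rapamycin animals in 8 of 9 members, with a median log2 difference of -1.59 from their mean. This held for 45.8% of all genes, and for 97.7% of the 1123 genes with a mean above an intensity of 200 in animals 1 and 2, where the median difference was -1.28. The differences were -2.27 for Nqo1, -2.24 for Akr1b8, -2.08 for Aldh1a1, -1.61 for Akr7a3, -1.59 for Ephx1, -1.28 for Akr1a1, -0.89 for Akr1b1 and -0.37 for Aldh3a1, and Cbr1 was higher by 0.41. The new capture lay above both arrays of the first RNA in 7 members: Nqo1 read 57.9 and 75.6 on arrays 3a and 3b and 104 on 3c, and Ephx1 read 715, 710 and 1038. Each of its arrays lay above every normal liver in 7 members, all but Akr1a1 and Aldh1a1. The part of the narrowed intensity range of these arrays in the members' values was not tested.

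**Figure D3:**
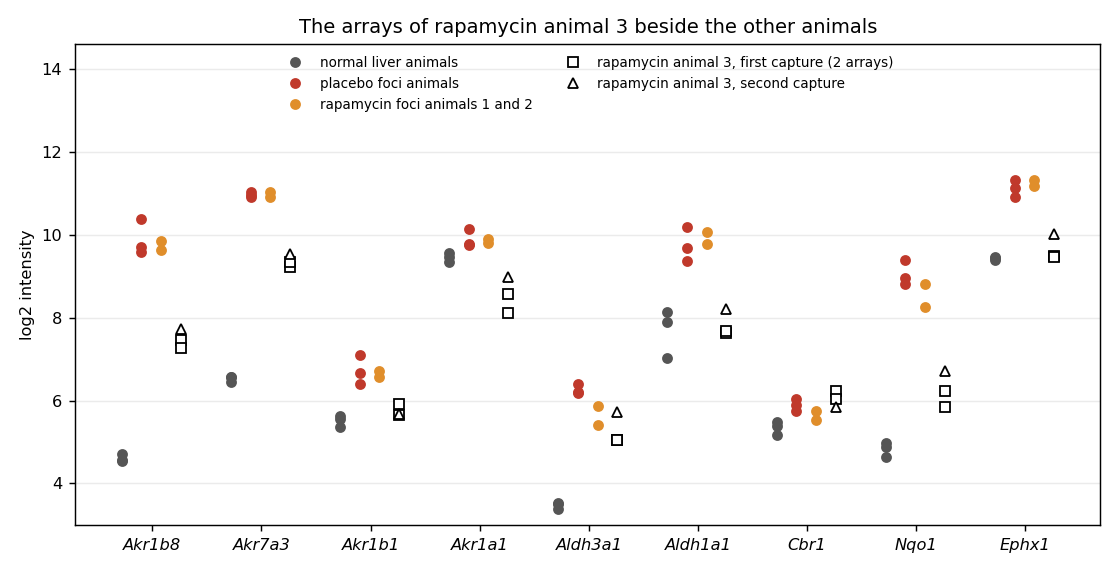
Log2 intensity (y axis) of the 9 enzymes in normal liver, placebo foci, rapamycin animals 1 and 2, and the 3 arrays of rapamycin animal 3 (squares, the pair on the same RNA; triangle, the new capture). The mean of animal 3 is below the other foci in 8 of the 9 enzymes, all but Cbr1, although its new capture lies above rapamycin animal 1 for Aldh3a1, and for Akr1a1 its arrays sit below normal liver.

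Within the placebo foci, animal 3 had the highest value of 7 members and animal 2 the lowest of 8. Among AAF/PH livers animal 3 was highest in 6. Over genes, the log2 interquartile range was 2.61 in placebo animal 3 and 2.14 in placebo animal 2, the widest and narrowest of that group. AAF/PH animal 3 had the widest of its group, at 2.26. The share of all genes ranked this way was not counted, so these counts are not shown to be particular to the members. Likeness of profiles was described by the root-mean-square difference of log2 values over the 12 animals, each gene centred on its own mean. Rapamycin animal 3 was included, and the distances were not computed without it. Akr1b8 and Akr7a3 differed by 0.41, Akr7a3 and Nqo1 by 0.55 and Akr1b8 and Nqo1 by 0.63, and the pair Akr1b8 and Cbr1 differed by 2.23. Aldh1a1 and Ephx1 differed by 0.40, and Akr1b1 and Ephx1 by 0.34. These distances grow with the size of a gene's own differences, so low-tier members lie close to many genes.

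Among all genes, those nearest to Akr1b8 were Akr7a3 (0.41), Gstp1 (0.47) and Defb1 (0.59). Nearest to Akr7a3 were Ccdc92 (0.36), Akr1b8 (0.41) and Defb1 (0.48), and nearest to Nqo1 were Defb1 (0.40), Ccdc92 (0.44) and Ptgr1 (0.47). For Aldh3a1 they were Cryl1 (0.31), Csmd1 (0.33) and Clic5 (0.36). For Aldh1a1 they were Anxa5 (0.30), S100a10 (0.31) and Ezr (0.35). For Ephx1 they were Tspo (0.19), Dynlt1 (0.22) and B4galt5 (0.24). For Cbr1 they were Plet1 (0.14), Cldn4 (0.15) and Frmd8 (0.17), for Akr1b1 Pdlim2 (0.11), B4galt5 (0.15) and Plscr1 (0.17), and for Akr1a1 Rplp0 (0.11), Gosr2 (0.11) and Bsg (0.13).

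Other enzymes of the same families were listed by family, without the 9 members. Of 66 such genes 54 were measured. Since the members were taken out for being high in foci, and the list was made with earlier results known, the counts of the remainder in foci depend on that choice and do not describe the whole families. In placebo foci 7 rose and 6 fell against normal liver, where 2.84% of all genes were called higher and 5.38% lower, and the median log2 difference was -0.15 against 0.04 for all genes. In AAF/PH liver 3 rose and 27 fell, where 7.54% and 12.5% of all genes were called, with a median of -0.93 against 0.12. In rapamycin foci 4 rose and 8 fell, where 1.6% and 4.93% of all genes were called, with a median of -0.31 against 0.07, and 0 differed between rapamycin and placebo foci. The placebo count of 13 was 27 without rapamycin animal 3, 7 without normal animal 1 or without placebo animal 1, and 8 without normal animal 3. The rapamycin count of 12 was 5 without normal animal 1 or 3 and 20 without rapamycin animal 2. Without rapamycin animal 3 it was 13, of which 7 rose and 6 fell, where 4 rose and 8 fell with that animal. The AAF/PH count of 30 was 19 without normal animal 1.

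Among aldo-keto reductases 2 of 12 rose and 2 fell in placebo foci. Akr1b10 and Akr1b7, the chromosome 4 neighbours of Akr1b8, rose by 2.35 ± 0.31 and 1.26 ± 0.28 on the log2 scale (SE, adjusted p = 0.000285 and 0.0103). Akr1b10 read 16.01 in normal liver and 81.8 in placebo foci, and Akr1b7 read 7.36 and 17.6. Both normal values, and the placebo value of Akr1b7, lie below the lowest array median of 19.8, so these differences are set against dim signal. Akr1c2 and Akr1c3, of the hydroxysteroid dehydrogenase branch, fell, at log2 differences of -2.90 and -1.23 (adjusted p = 0.000275 and 0.00377). In AAF/PH liver 8 of 12 fell and 0 rose. Akr7a2, the close relative of Akr7a3, read 357 in normal liver, 69.1 in AAF/PH liver, 369.5 in placebo foci and 308 in rapamycin foci, and it fell in AAF/PH liver, at a log2 difference of -2.37 (adjusted p = 0.000195).

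Among aldehyde dehydrogenases 3 of 13 rose in placebo foci and 1 fell. The folate enzymes Aldh1l1, which is cytosolic, and Aldh1l2, which is mitochondrial, went opposite ways there, at 1.27 ± 0.33 and -0.95 ± 0.24 on the log2 scale (SE, adjusted p = 0.0265 and 0.0231). Aldh3b1 rose by 0.74 (adjusted p = 0.0143) and Aldh18a1, which makes the precursor of proline, by 0.70 (adjusted p = 0.0254). In AAF/PH liver 7 of 13 fell and 2 rose, and Aldh1l2 fell by 2.01 (adjusted p = 4.9e-05).

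Among carbonyl reductases and related dehydrogenases, Ptgr1, which reduces alkenals, was the 1 of 12 that rose in placebo foci. Its mean was 145 in normal liver, 80.1 in AAF/PH liver, 1318 in placebo foci and 702 in rapamycin foci, a placebo difference of 3.18 ± 0.44 on the log2 scale (SE, adjusted p = 0.000424). Dcxr, a xylulose and dicarbonyl reductase, and Dhrs4 fell, at log2 differences of -1.29 and -1.04 (adjusted p = 0.0211 and 0.0105). In AAF/PH liver 6 of the 12 fell and 1 rose, and Dcxr fell by 2.91 (adjusted p = 2.77e-05).

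Among the 9 other quinone reductases and the reductases that pass single electrons to quinones, 0 were called in placebo foci by limma. Nqo2, the paralog of Nqo1, read 110.3 in normal liver and 53.3 in placebo foci, a log2 difference of -1.05 ± 0.36 (SE, adjusted p = 0.098), where Nqo1 was higher by 4.21. In AAF/PH liver 3 of 9 fell, with Nqo2 at -2.25 and Cyb5r3 at -2.75 (adjusted p = 0.00053 and 5.48e-05). The 3 other epoxide hydrolases had 0 calls in any comparison. In placebo foci Ephx4 differed by 0.64 ± 0.21 and Ephx2, the soluble form, by -0.65 ± 0.32 (SE, adjusted p = 0.0806 and 0.279). Ephx4 averaged 8.63 in normal liver and 13.45 in placebo foci, both below the lowest array median.

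Of the related enzymes, the aldehyde oxidase Aox3 had the widest differences from normal liver in placebo foci and AAF/PH liver. Aox3 averaged 480.2 in normal liver, 17.4 in AAF/PH liver, 18.4 in placebo foci and 28.4 in rapamycin foci, the AAF/PH and placebo means lying below the lowest array median, and it fell in both placebo foci and AAF/PH liver, at log2 differences of -4.70 and -4.79 (adjusted p = 1.8e-08 and 1.4e-08). Its paralog Aox1 averaged 352 in normal liver, 102 in AAF/PH liver, 1075 in placebo foci and 725 in rapamycin foci, so it rose by 1.61 in placebo foci and fell in AAF/PH liver, at -1.79 (adjusted p = 0.00963 and 0.00245). The called directions of these enzymes were the same after median centring and quantile normalization.

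**Figure D4:**
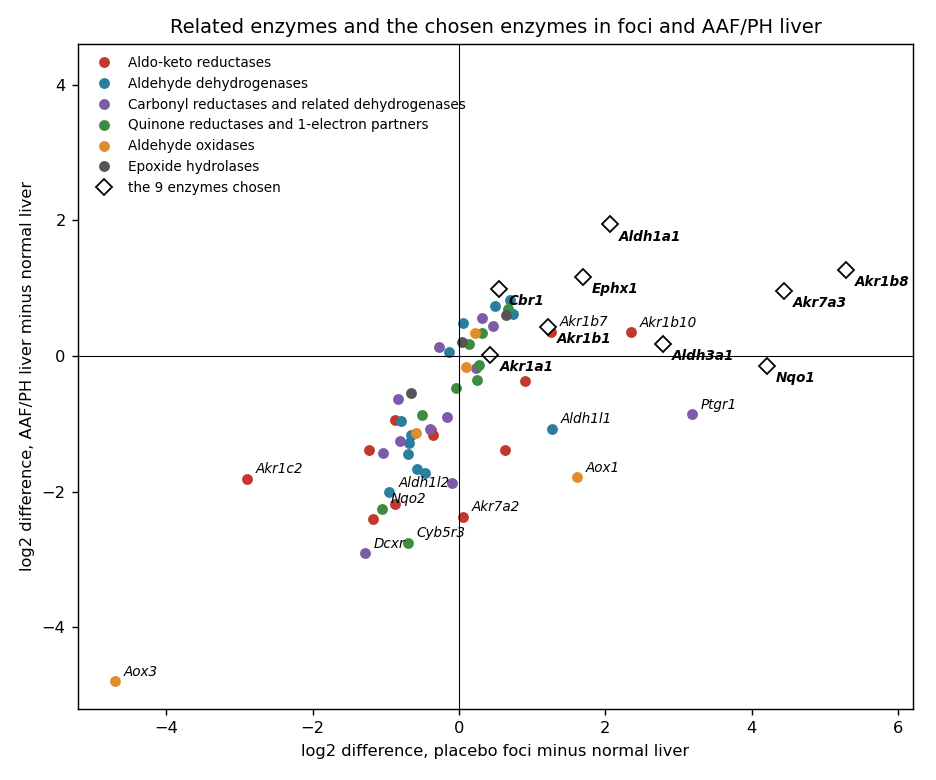
Log2 difference from normal liver of 54 related enzymes (coloured circles, by family) and of the 9 members (open diamonds), in placebo foci (x axis) and in AAF/PH liver (y axis); each point is a difference of means of 3 animals, and both axes share the same normal livers. Most related enzymes lie below 0 in AAF/PH liver, and Aox3 is far below 0 on both axes.

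Regulators and other targets of the factors that act on these enzymes were counted from lists drawn up by function. The lists were made with earlier results of these data known, so their counts and adjusted p-values are not independent evidence. Over all genes, 2.84% were called higher and 5.38% lower in placebo foci, 1.6% and 4.93% in rapamycin foci, and 7.54% and 12.5% in AAF/PH liver. Of 10 NRF2 regulators, Maff, a small MAF partner of NRF2, was the 1 that rose in placebo foci (1.29 ± 0.23 on the log2 scale, SE, adjusted p = 0.00256). Maff also rose in rapamycin foci, by 1.01 (adjusted p = 0.0174), and in AAF/PH liver, by 0.73 (adjusted p = 0.0346), where Mafk rose as well, by 0.60 (adjusted p = 0.0457). The mRNAs of NRF2 itself (Nfe2l2, -0.43, adjusted p = 0.59) and of its inhibitor Keap1 (0.18, adjusted p = 0.725) missed the threshold. Of 18 other NRF2 targets, 9 rose and 0 fell in placebo foci, 7 rose and 0 fell in rapamycin foci, and 2 rose and 4 fell in AAF/PH liver, with medians of 1.11, 0.51 and -0.47. In placebo foci the cystine transporter Slc7a11 rose by 5.11 ± 0.53, the export pump Abcc3 by 3.75 ± 0.31, and the subunits of glutamate-cysteine ligase Gclc and Gclm by 2.74 ± 0.37 and 2.57 ± 0.39 (SE, adjusted p = 3.89e-05, 5.66e-06, 0.000317 and 0.000769). Slc7a11 averaged 7.06 in normal liver, below the lowest array median, so the size of its difference is set against dim signal. Hmox1, another target, differed by 0.23 (adjusted p = 0.721).

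Gclm fell in AAF/PH liver, at a log2 difference of -1.81 (adjusted p = 0.0044), and Abcc3 rose there by 1.37 (adjusted p = 0.00623). Of 6 genes of the aryl hydrocarbon receptor pathway, 0 rose and 2 fell in placebo foci: Cyp1a2, an inducible P450 of hepatocytes, at -2.52 and the receptor's partner Arnt at -0.91 (adjusted p = 1.67e-05 and 0.0423). The same genes fell in rapamycin foci, at -2.05 and -0.95 (adjusted p = 0.000246 and 0.0422). In AAF/PH liver 2 rose, Cyp1b1 by 1.79 and Ahrr by 0.60 (adjusted p = 0.000333 and 0.0383), and 2 fell, again Cyp1a2 and Arnt. Ahrr read 9.02 in normal liver and 13.65 in AAF/PH liver, and Cyp1b1 read 9.42 in normal liver. All 3 values lie below the lowest array median of 19.8, so both differences are set against dim signal. Of 7 genes of the receptors CAR and PXR, which also regulate drug metabolism, Cyp3a9 fell in placebo foci, at -3.01 (adjusted p = 7.61e-06), and in rapamycin foci, at -2.79 (adjusted p = 3.98e-05), and 4 fell in AAF/PH liver, with Cyp2b2 at -2.93 (adjusted p = 1.55e-05).

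Markers of the cell types in the captured regions moved with the groups. The shares of all genes called higher and lower were 2.84% and 5.38% in placebo foci, 1.6% and 4.93% in rapamycin foci, and 7.54% and 12.5% in AAF/PH liver. Of 8 hepatocyte markers 3 fell in placebo foci, 1 in rapamycin foci and 4 in AAF/PH liver. Tat (0.90) and Cps1 (0.08) were higher in AAF/PH liver on the log2 scale, without a call. The summed intensity of the 8 was 28080 to 30770 in normal liver, 16430 to 18680 in AAF/PH liver, 19780 to 23630 in placebo foci and 17070 to 27220 in rapamycin foci. Of 6 biliary and oval cell markers 5 rose in AAF/PH liver, 3 in placebo foci and 2 in rapamycin foci, and their sum was 112 to 137, 402 to 584, 357 to 596 and 187 to 372.5 in the same order. Of 7 stellate cell and matrix markers 5 rose in AAF/PH liver, 1 in placebo foci and 0 in rapamycin foci, with sums of 545 to 722, 1401 to 4201, 660.5 to 882 and 510.5 to 706. Macrophage markers had 1 of 7 higher and 1 lower in AAF/PH liver, 1 lower in placebo foci (Marco) and 3 lower in rapamycin foci (Marco, Cd163 and Clec4f), where their median log2 difference was -0.97. Of 4 endothelial markers Kdr fell in AAF/PH liver, placebo foci and rapamycin foci, and of 5 lymphocyte markers Ptprc rose in AAF/PH liver and 0 were called in foci. The part of these cell types in the members' differences was not tested.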

How the data were processed

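Deposited values were linear array intensity for 28826 probe sets in 14 columns; the submitters' processing notes name Partek 6.6 and RMA, with no role or order, and further settings are not given in the sources used here. For the test, the design had assumed log2 values, so log2 was taken here without an offset. The 15209 probe sets with 1 gene symbol gave 14497 genes, the brightest probe set standing for each. The 3 arrays of rapamycin animal 3 were averaged, and the animal was the replicate. limma 3.58.1 (R 4.3.3) fitted the 4 groups together, with 8 residual and 6.38 prior degrees of freedom, and was tested on simulated data. Genes were called at a Benjamini-Hochberg adjusted p under 0.05. Named genes were all members and the 3 nearest profiles per member. Of each list, up to 4 called genes of smallest p were named per comparison, or 2 where none was called. Nfe2l2 and Keap1 in placebo foci, Hmox1, and Tat and Cps1 in AAF/PH liver were named outside that rule, after their values were seen. The members and lists were chosen with earlier results of these data known. Replicate numbers were checked for pairing: correlations of same-numbered deviations ran from -0.681 to 0.381, with 7 of 18 pairs over 0.1, so no block was used. The alternatives were median centring, quantile normalization, an offset of 20, array quality weights, an intensity trend, leaving out dim genes, fitting 2 groups alone, a replicate block, array 3a alone, the mean of all probe sets, and leaving out each animal.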

Additional observations from a re-analysis of the deposited data

How the results depend on the processing

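Signs and calls of the members under the alternatives were unchanged in 171 of 197 member results for AAF/PH liver against normal liver and in 190 of 197 for rapamycin against placebo foci. The 3 members called in AAF/PH liver became 7 after quantile normalization, 6 with array quality weights (whose estimation stopped before its tolerance was met) and 6 with those 2 groups alone, and 2 to 5 when 1 animal was left out. Related enzymes called in placebo foci numbered 13, but 38 with array weights, 26 with 2 groups alone and 7 to 27 with 1 animal left out; in rapamycin foci 12, but 4 with 2 groups alone and 5 to 20 with 1 animal left out; in AAF/PH liver 30, and 19 to 38 with 1 animal left out. Genes called in placebo foci numbered 1192, but 6443 with array weights, 2297 with 2 groups alone and 606 to 2462 with 1 animal left out. In rapamycin foci 947 became 1427 (208 higher) after median centring, 210 with 2 groups alone and 224 to 2051 with 1 animal left out; in AAF/PH liver 2900 became 7996 with array weights, 5115 with 2 groups alone and 1552 to 5208 with 1 animal left out; between rapamycin and placebo foci 0 became 1 with array weights and 0 to 3 with 1 animal left out. With the replicate number as a block, 555 genes were called in rapamycin foci, 919 in placebo foci and 2279 in AAF/PH liver, and 3 members in AAF/PH liver; the numbers share only a name. Signs turned for Akr1a1 in AAF/PH liver after median centring (-0.10) and with 1 animal left out (-0.07 to 0.19), and for Aldh3a1 there after quantile normalization (-0.06). Between rapamycin and placebo foci they turned for Aldh1a1 with array weights (0.23) and with 1 animal left out (-0.93 to 0.18), for Cbr1 after quantile normalization (0.04) and with 1 animal left out (-0.26 to 0.00), for Ephx1 with array weights (0.11) and with 1 animal left out (-0.70 to 0.13), and for Akr7a3 with 1 animal left out (-0.83 to 0.01). The cause was not tested. Leaving out dim genes removed Aldh3a1, which then has no value.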
